A study of Mus musculus with 4 samples.

Results

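Glomerular endothelial cells were studied in dissociated kidneys of aged mice as the barcodes that carried endothelial transcripts and Ehd3, carried at most 1 UMI (unique molecular identifier, 1 captured transcript) of Plvap, and lacked transcripts of leukocytes and proximal tubule. A barcode was kept with at least 500 UMIs, at least 300 genes and at most 50% of its UMIs from the mitochondrial genome. It was a member when Pecam1, Cdh5, Emcn and Kdr summed to at least 3 UMIs, Ehd3 to at least 1, Plvap to at most 1, Ptprc to 0, and Lrp2 with Slc34a1 to at most 3. This gave 257 cells of 50605 kept barcodes: 62 in BPTES library 1, 48 in BPTES library 2, 61 in DMSO library 1 and 86 in DMSO library 2. Male C57BL/6 mice, 19 months old at the start, had been given BPTES or its vehicle DMSO for 1 month, and each library held 20000 sorted CD45- cells mixed with 9000 CD45+ cells of 1 tissue, read with 10x 3' chemistry. BPTES is a small-molecule inhibitor of glutamine metabolism, and the labels name no engineered allele in either group. The labels number 2 libraries per group but do not say that they came from separate mice, so p-values measure the spread between these libraries, which may be technical.

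The glomerular capillary tuft is the site where plasma is filtered into urine. Its endothelium is flat and perforated by open fenestrae, whereas the fenestrae of the capillaries around the tubules are closed by diaphragms built from Plvap protein. Podocytes on the far side of the shared basement membrane secrete VEGF-A, which keeps this endothelium alive through the receptor Kdr. Ehd3, a membrane-trafficking ATPase, Kdr, and Plat, the tissue plasminogen activator that starts clot lysis, are the usual markers of these cells in the mouse kidney.

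In the RefSeq table of mouse build GRCm38.p6, Ehd3 lies at chr17:73804841-73832093, Kdr at chr5:75932827-75979072 and Plat at chr8:22757722-22782848. Among the genes described below, Edn1, which encodes the vasoconstrictor endothelin-1, lies at chr13:42301476-42307990, and Apln, which encodes the vessel-growth peptide apelin, lies at chrX:48025146-48034853. Of the 116 genes followed, 79 had a promoter in the table, and Plat had no entry. The window of 250 bases before to 50 bases after the start is printed for the gene that defines the cells and for Edn1 and Apln, which differed between the treatments among the cells richest in Ehd3. The Ehd3 window is chr17:73804591-73804890 on the plus strand, that of Edn1 is chr13:42301226-42301525 on the plus strand, and that of Apln is chrX:48034804-48035103 on the minus strand. Capitals mark matches, on either strand, to any of 12 motifs, which are named with their letters after the sequences (NF-kB, CArG, ISRE and DR4 by name). No capitals belong to more than 1 motif.
Ehd3: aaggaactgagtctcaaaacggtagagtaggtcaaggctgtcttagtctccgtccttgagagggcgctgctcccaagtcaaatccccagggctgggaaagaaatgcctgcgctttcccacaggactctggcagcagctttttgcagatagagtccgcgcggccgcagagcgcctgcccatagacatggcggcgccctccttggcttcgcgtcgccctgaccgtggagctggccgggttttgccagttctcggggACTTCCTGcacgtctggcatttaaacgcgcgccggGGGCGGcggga
Edn1: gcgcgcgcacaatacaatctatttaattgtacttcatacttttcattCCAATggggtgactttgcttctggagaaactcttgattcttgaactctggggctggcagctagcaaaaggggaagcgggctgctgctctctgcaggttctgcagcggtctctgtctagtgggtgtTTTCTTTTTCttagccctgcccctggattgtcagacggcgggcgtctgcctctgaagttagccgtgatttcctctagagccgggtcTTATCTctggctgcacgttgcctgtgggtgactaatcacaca
Apln: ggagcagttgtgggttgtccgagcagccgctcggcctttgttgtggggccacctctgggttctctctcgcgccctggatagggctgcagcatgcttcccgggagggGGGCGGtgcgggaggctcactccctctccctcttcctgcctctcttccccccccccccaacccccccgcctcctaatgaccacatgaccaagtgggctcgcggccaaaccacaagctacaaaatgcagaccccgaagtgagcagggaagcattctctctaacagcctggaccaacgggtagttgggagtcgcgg
The Ehd3 window held an ETS match and a GC box. The Edn1 window held a CAAT, an ISRE and a GATA match, and the Apln window held only a GC box. A match is a description, not a site of binding. Of all 32851 promoters of the table, 3.33% held the ETS motif CAGGAAGT, 35.7% the GC box GGGCGG, 37.4% the CAAT motif CCAAT, 11.2% the GATA motif AGATAA and 3.44% the ISRE. Of the motifs with no match in these windows, the shares were 1.79% for the CRE TGACGTCA, 7.81% for the AP-1 motif TGANTCA, 7.15% for the E-box CACGTG, 1.24% for the SRE1 motif TCACNCCAC, 1.63% for the CArG box, 1.63% for NF-kB and 0.0152% for DR4.

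The label was borne out for only some of the 257 cells. In 92 cells (35.8%) Ehd3 was at 1 UMI, in 36 (14.0%) at 2 to 4, in 36 at 5 to 9, and in 93 (36.2%) at 10 or more. As a description of values the gate uses, the median sum of the 4 endothelial genes was 11.5 UMIs in cells with 1 Ehd3 UMI and 200 UMIs in cells with at least 10, at median depths of 9601 and 15692 UMIs. The lower edge of the gate was well filled: 109, 64, 73 and 166 cells (BPTES 1, BPTES 2, DMSO 1, DMSO 2) met all the limits but had no Ehd3 UMI, beside 19, 20, 17 and 36 members with 1. At the upper limit for Plvap, 12, 9, 12 and 26 members carried 1 UMI, and 15, 4, 18 and 17 Ehd3-positive cells just outside carried 2. Values are given in this order of libraries throughout, as CPM, a gene's count scaled to the total of the UMIs summed over the cells of a library.

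Most markers of the glomerular endothelium followed the Ehd3 count: of the 13 on the list that the gate did not use, the pooled levels of 10 were in ascending order over cells with 1 to 4, 5 to 9 and at least 10 Ehd3 UMIs. The other 3 were not: Fbln2 was at 120, 53.9 and 3.2 CPM, Lpl at 481, 688 and 592 CPM and Cyb561 at 8.1, 8.0 and 12.1 CPM. Plat was at 567 CPM in the 128 cells with 1 to 4 Ehd3 UMIs, at 2603 CPM in those with 5 to 9, and at 4775 CPM in those with at least 10, against 447 CPM in 1173 Plvap endothelial cells (Ehd3 0, Plvap at least 2) of the same libraries. Gata5, a transcription factor of the glomerular endothelium, was at 8.1, 35.9 and 172 CPM in the same order and was not counted in Plvap cells. Pi16, a secreted protease-inhibitor-like protein, went from 248 through 485 to 1075 CPM, and Smad6, an inhibitor of BMP signalling, from 72.2 through 178 to 396 CPM. Some markers of other cells were lower in the highest than in the lowest of the 3 classes. Igfbp3, a binding protein for insulin-like growth factors that is high in capillaries around tubules, stood at 209, 251 and 1.9 CPM. These are in the order 1 to 4, 5 to 9 and at least 10 Ehd3 UMIs, so Igfbp3 did not descend throughout. Npr3, the clearance receptor for natriuretic peptides, stood at 120 and 0 CPM, the fibroblast proteoglycan gene Dcn at 1138 and 1.3 CPM, and the pericyte gene Rgs5 at 223 and 0.6 CPM. The levels in the cells with 1 to 4 Ehd3 UMIs differed widely between libraries. In library order they were 584, 61.9, 168 and 116 CPM for Igfbp3 and 20.7, 24.1, 228 and 153 CPM for Npr3. Dcn was at 2865, 0, 202 and 1095 CPM and Rgs5 at 274, 1098, 12.6 and 10.3 CPM. The pooled values thus come mainly from BPTES library 1 and DMSO library 2 for Dcn and from the BPTES libraries for Rgs5. The peritubular capillary list as a whole was not lower in the highest class. Its 10 genes summed to 1862, 1332, 1268 and 1364 CPM in the cells with 1 to 4 Ehd3 UMIs. They summed to 4059, 5191, 3899 and 3532 CPM in those with at least 10, where Igfbp5 alone was at 3346 CPM.

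The difference in detection was also present at equal depth. After each cell was thinned to 3000 UMIs, which left out 30 of the 128 cells with 1 to 4 Ehd3 UMIs and none of the 93 with at least 10, a Plat UMI was found in 45.9% and 96.8% of them (58.6% and 98.9% before thinning). A Pi16 UMI was found in 29.6% and 87.1%, and a Gata5 UMI in 5.1% and 46.2%. A Dcn UMI was found in 24.5% and 0%. The cells with 1 to 4 Ehd3 UMIs are therefore called Ehd3-low, and only the 93 with at least 10 are called glomerular endothelial cells from here on. The bound of 10 was chosen after these marker levels were seen. As a raw count it also depends on depth: 8 of the 36 cells with 5 to 9 Ehd3 UMIs had under 3000 UMIs. Those 36, with Plat at 2603 CPM, are left out and may hold glomerular endothelial cells.

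**Figure D1:**
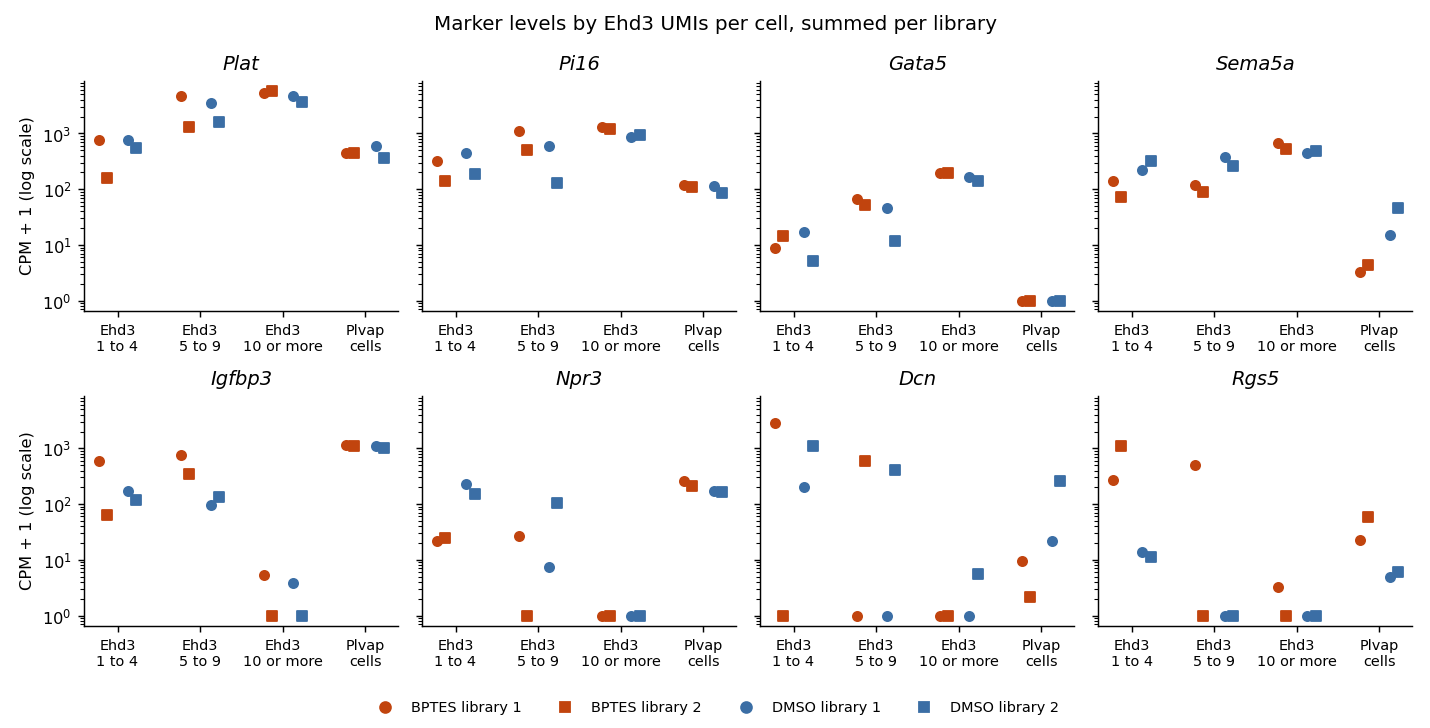
Levels of 8 markers, as CPM + 1 on a log axis, in cells with 1 to 4, 5 to 9 and at least 10 Ehd3 UMIs and in Plvap endothelial cells, 1 point per library. Plat, Pi16 and Gata5 are highest, and Igfbp3, Npr3, Dcn and Rgs5 near 0, in the cells with at least 10 Ehd3 UMIs in all 4 libraries.

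Ehd3-low cells made up 46.8%, 43.8%, 42.6% and 60.5% of the gated cells, the most in DMSO library 2. The glomerular endothelial cells numbered 25, 22, 23 and 23, which was 40.3%, 45.8%, 37.7% and 26.7% of the gated cells, and they held 49.2%, 46.7%, 42.9% and 27.5% of the gated UMIs. DMSO library 2 was lowest on both counts. It also held 25 of the 33 gated cells with at least 10 UMIs of Dcn and Col1a1, against 3, 1 and 4 in the others, and none of the 33 was among the glomerular endothelial cells. Over the gate the 7 fibroblast markers summed to 2377, 296, 980 and 8075 UMIs, and in the glomerular endothelial cells to 9, 8, 6 and 12, with Col1a1, Pdgfra and Lum at 0. The 10 mesangial and pericyte markers summed to 841, 940, 133 and 1061 UMIs over the gate and to 19, 0, 16 and 5 in the glomerular endothelial cells. The 10 podocyte markers summed to 714, 515, 436 and 679 UMIs in the glomerular endothelial cells, with 7 of the 10 detected. Podxl (832 CPM) and Clic5 (586 CPM), which endothelium also makes, were the abundant ones, and the podocyte genes Nphs1 and Wt1 were at 0. In BPTES library 2 a single gated barcode of 88078 UMIs carried 7636 UMIs of the plasma cell gene Jchain, and over the gate the markers of the thick ascending limb summed to 22, 3467, 21 and 28 UMIs. Between libraries 90 to 114 barcodes per pair were shared, 0.503% to 0.618% of the smaller library.

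The glomerular endothelial cells differed from the Plvap endothelium of the same libraries in a set of genes that the gate did not use. This contrast is a description without a test, because the cells were chosen on their own counts. Gata5 (172 CPM) and Adamts16, a secreted metalloprotease, were not counted in any Plvap cell, so they were at least 707-fold and at least 581-fold higher, taking 3 UMIs over the 4 libraries as the bound. Sema5a, a guidance semaphorin, was 24.6-fold higher. Vegfa, the ligand of Kdr itself, was 14.5-fold higher, at 140 CPM against 9.7 CPM. Ltc4s, which makes leukotriene C4, was 22.4-fold higher, the extracellular chaperone Clu 12.3-fold and the cyclin D1 gene Ccnd1 11.3-fold. The microtubule-binding gene Mapt was 11.6-fold higher, Plat 10.7-fold, Pi16 10.5-fold and the transcription factor Tbx3 9.2-fold. In the opposite direction Igfbp3 was 561-fold lower and Mgp, an inhibitor of calcification, 443-fold lower. The Mgp value is pooled over Plvap libraries that differed widely, at 1264, 346, 2294 and 5017 CPM in library order. Igfbp7 was 80.2-fold lower and the gap-junction gene Gja1 67.1-fold lower. Rgcc, Scin, Npr3 and Lgr5 were not counted in the glomerular endothelial cells, at least 151, 124, 101 and 84.8-fold lower. Mitochondrial, haemoglobin, Igk and Igh genes were left out of the counts that follow. In the glomerular endothelial cells 823 genes were at 50 CPM or more in each library and above the highest Plvap library. In the Plvap cells 622 genes were at 50 CPM or more in each library and above the highest glomerular library. The number of genes that reached 50 CPM was not counted, so no share is given.

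Many Ehd3-rich cells were kept out by Plvap: 49, 24, 32 and 61 cells had at least 10 Ehd3 UMIs and 2 or more Plvap UMIs. Their median Plvap count was 62 UMIs, and Igfbp3 stood at 940 CPM, Plat at 629 CPM, Pi16 at 93.6 CPM, Sema5a at 24.7 CPM and Gata5 at 13.2 CPM. For all 5 genes these values lay nearer those of the Plvap endothelium than those of the glomerular endothelial cells, and these cells are outside the rule. With at least 1 Ehd3 UMI and 2 or more Plvap UMIs there were 573, 353, 548 and 724 endothelial cells. The Plvap endothelium of the comparisons, without Ehd3, numbered 295, 190, 272 and 416. Ehd3 UMIs were thus not particular to the glomerular endothelial cells, and that Plvap endothelium is only a part of the Plvap-positive cells.

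The markers themselves were present in every library of both treatments. Among the glomerular endothelial cells Kdr was at 3453 and 3128 CPM with BPTES and at 2975 and 3416 CPM with DMSO, and Ehd3 was at 3070 and 2931 CPM against 1800 and 3036 CPM. Both ranges overlapped, and both genes belong to the gate, so neither was tested. Plat was at 5378 and 5659 CPM with BPTES and at 4625 and 3628 CPM with DMSO. The groups did not overlap, and the difference of 0.41 ± 0.16 (log2 ± SE, edgeR) did not pass the adjusted threshold of 0.05. Every SE printed with an edgeR difference was derived from the test, as the absolute difference divided by the square root of its F statistic. It is not a fitted standard error and gives no interval, and a small value does not mean that a gene was called.

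The share of these cells among endothelial cells did not differ beyond the spread between libraries. Of the 4040 endothelial cells of any Ehd3 and Plvap level, the rule took 5.97% (95% Clopper-Pearson interval 4.61 to 7.58), 7.33% (5.45 to 9.60), 6.39% (4.93 to 8.14) and 6.18% (4.97 to 7.57). The means were 6.65% ± 0.962 with BPTES and 6.29% ± 0.153 with DMSO (SD, n = 2), with a two-sided exact permutation p of 1 in a design whose smallest possible p is 0.333. The glomerular endothelial cells with at least 10 Ehd3 UMIs made up 2.41%, 3.36%, 2.41% and 1.65%, with means of 2.88% ± 0.674 and 2.03% ± 0.536 (SD, n = 2) and an exact permutation p of 0.667. After thinning to 3000 UMIs the rule took 4.28%, 5.62%, 6.76% and 4.80%, so the order of the means turned over, as it did without BPTES library 2 (a difference of -0.319 percentage points). Intervals cover counting error only, and with 48 to 86 cells per library they were wider than the difference between the means.

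**Figure D2:**
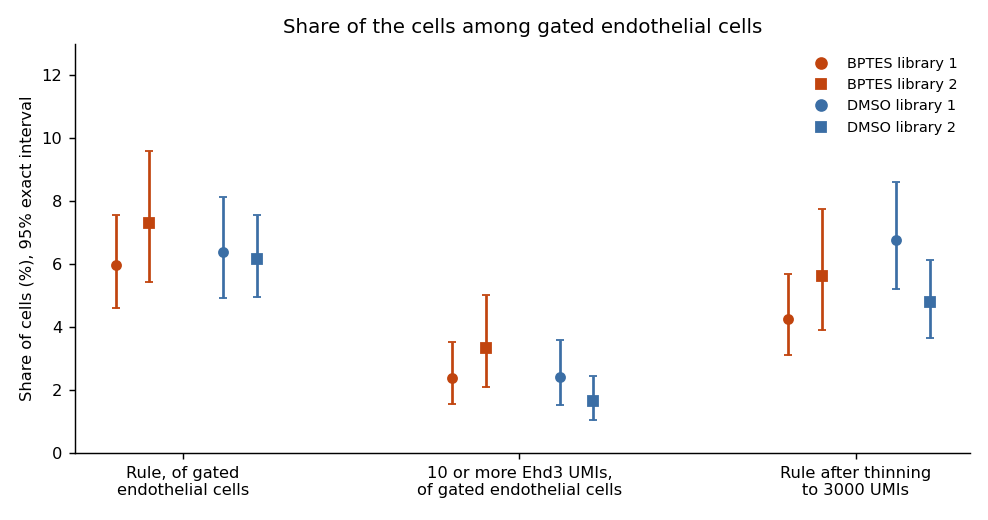
Share of gated endothelial cells (%) that met the rule, that also had at least 10 Ehd3 UMIs, and that met the rule after thinning to 3000 UMIs, 1 point per library with its 95% Clopper-Pearson interval. The intervals of BPTES and DMSO libraries overlap in each set.

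With BPTES, no gene differed from DMSO at the adjusted threshold over the whole gate. On 1 sum of UMIs per library, edgeR called 0 of 9471 genes (0%) after Benjamini-Hochberg adjustment. Of all 9471 genes, 18.3% were higher in both BPTES libraries than in both DMSO libraries and 18.3% lower. An unadjusted p under 0.05 was found for 623 genes (6.58%), and DESeq2 called 54 (0.57%), 19 higher and 35 lower. Without BPTES library 1 edgeR called 21 genes and without DMSO library 1 it called 219. In simulated counts at the depth of the 4 libraries, a log2 change of 2 was called for 83.8% of 99 altered genes. A log2 change of 1 was called for 8.33% of 96, so changes of the smaller size were mostly not detectable at this depth. The simulation gave all genes 1 common coefficient of variation (0.255) and altered only genes with higher counts. It did not model sums in which a single cell holds most of a gene's UMIs, so these shares may not hold for the real genes.

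The genes with the smallest p over the whole gate were mostly genes of the Ehd3-low cells. Npr3 had 10 and 7 UMIs with BPTES against 73 and 169 with DMSO, a log2 difference of -3.15 ± 0.30 (SE), and the Ehd3-low cells held 91.1% of its UMIs. Spp1, the secreted matrix phosphoprotein osteopontin, had 269 and 100 UMIs against 1537 and 4391 (-3.37 ± 0.39), with 65.7% from Ehd3-low cells. Pcdh7, a protocadherin, had 3 and 0 UMIs against 47 and 142 (-5.20 ± 0.67), with 99.5% from Ehd3-low cells. All 3 were lower in both BPTES libraries, and none passed the edgeR threshold. Kirrel3, a cell adhesion protein (-2.08 ± 0.26, 93.0% from Ehd3-low cells), Col8a1, a short-chain collagen (-2.34 ± 0.30, 81.8%), and Aldh1a2, which makes retinoic acid (-2.18 ± 0.34, 84.7%), had the same pattern. Adgrb3, an adhesion receptor, had no UMI with BPTES against 30 and 111, at least 31.2-fold lower.

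In the other direction Rasl12, a Ras-like small GTPase, had 26 and 20 UMIs with BPTES against 1 and 1 with DMSO, a log2 difference of 4.96 ± 0.59 with an edgeR adjusted p of 0.176. Rgs7bp, which anchors regulators of G-protein signalling, had 57 and 59 UMIs against 0 and 4 (5.46 ± 0.65), and 93.3% of them came from Ehd3-low cells. Plce1, a phospholipase C, had 51 and 19 UMIs against none, at least 35.2-fold higher, in 6 cells. Stac had 34 and 17 UMIs against none, in 5 cells. Over the gate the UMIs of Plce1 and Stac thus sat in few cells. Ctnna3, an alpha-catenin, was the exception among the 16 genes: 60.4% of its UMIs came from glomerular endothelial cells, it had 370 and 245 UMIs against 127 and 231 over the gate (1.40 ± 0.19), and within the glomerular endothelial cells it differed by 0.31 ± 0.22. Beside these values, the 10 mesangial and pericyte markers summed to 921, 1353, 161 and 663 CPM over the gate. Of the 8 tested, 3 were higher in both BPTES libraries and 0 lower, against 18.3% of all genes each way, which rests on few genes. Rgs5 stood at 160, 459, 4.85 and 6.25 CPM and Myh11 at 168, 220, 1.21 and 11.2 CPM over the gate, and 3, 2, 0 and 1 gated cells held at least 10 UMIs of the pair. The part of these cells in the values was not tested.

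**Figure D3:**
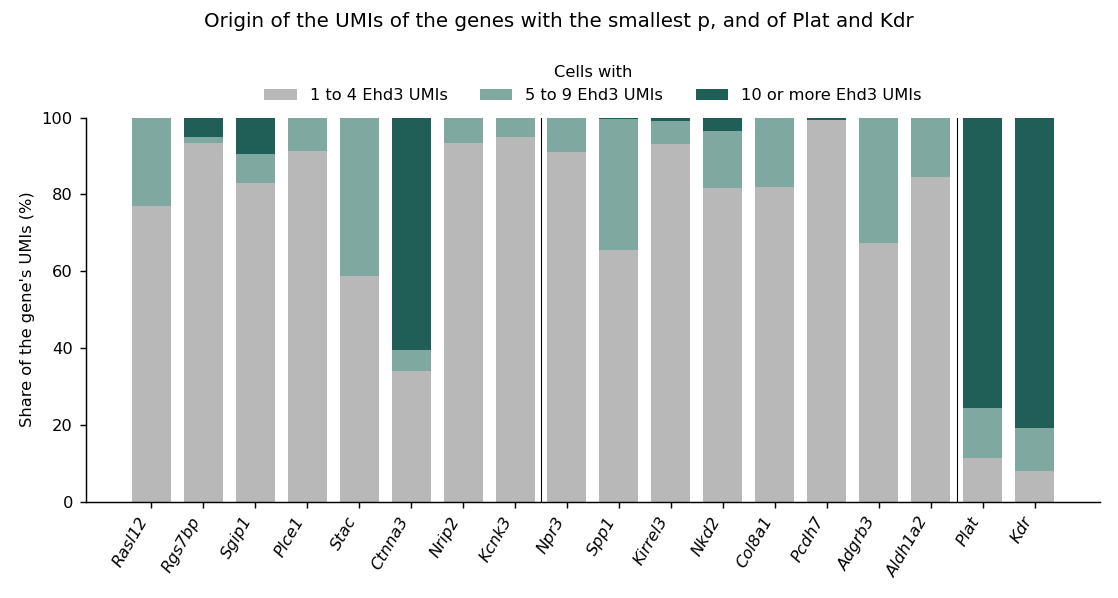
Share of each gene's UMIs over the gate (%) that came from cells with 1 to 4, 5 to 9 and at least 10 Ehd3 UMIs, for the 8 genes with the smallest p in each direction and for Plat and Kdr. Plat and Kdr have 75.6% and 80.9% of their UMIs in cells with at least 10, and Npr3, Pcdh7 and Kirrel3 over 90% in cells with 1 to 4.

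Within the 93 glomerular endothelial cells, BPTES libraries had less Edn1, Apln, Col4a1, Akap12, Vim, H2-K1 and Gm13387, and more Igha, Igkc, Cnmd and Tspan13, than DMSO libraries. These were the 11 genes of 6753 tested (0.163%) that passed edgeR's adjusted threshold, 4 higher (0.0592%) and 7 lower (0.104%). In all, 426 genes (6.31%) had an unadjusted p under 0.05. Leaving out 1 library at a time changed the count, to 4 without BPTES library 1, 1 without BPTES library 2, 52 without DMSO library 1 and 59 without DMSO library 2. The cell bound was an added choice, and DESeq2 called 4 genes.

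Edn1 was counted 4 and 3 times with BPTES and 20 and 45 times with DMSO, at 8.91 and 9.24 CPM against 56.5 and 102 CPM. Both BPTES libraries were low, and edgeR gave a log2 difference of -3.13 ± 0.51 (SE, adjusted p 0.00656). The UMIs lay in 18 cells, 2 and 1 with BPTES and 8 and 7 with DMSO, and the fullest cell held 29. The value depended on the bound on Ehd3: it was -0.044 with at least 5 Ehd3 UMIs, and -0.0094 with at least 2 Ehd3 and 0 Plvap UMIs. Over the whole gate Edn1 had the other sign, with 211 and 137 UMIs against 135 and 207 (0.61 ± 0.21, adjusted p 0.703), and 70.6% of those UMIs came from Ehd3-low cells. In Plvap endothelium the log2 difference was 0.93. The difference between the glomerular and the Plvap effects was -4.17 ± 0.72, with an edgeR adjusted p of 0.126, so it did not pass the threshold.

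Apln was counted 2 and 4 times with BPTES and 63 and 29 times with DMSO, at 4.46 and 12.3 CPM against 178 and 66.0 CPM. The log2 difference was -3.89 ± 0.62 (SE; edgeR adjusted p 0.025). It was found in 15 cells, 2, 3, 7 and 3 in library order, of which the fullest held 26 UMIs. Apelin is made at the tips of growing vessels and acts through the receptor Aplnr. Esm1, another gene of growing and VEGF-stimulated endothelium, had the opposite direction at 1.64 ± 0.44 and did not pass the threshold. Vim, the intermediate filament vimentin, stood at 17.8 and 46.2 CPM against 113 and 116 CPM (-1.93 ± 0.37, adjusted p 0.025), in 24 cells. Its direction turned with at least 5 Ehd3 UMIs (0.26) and in gated cells without UMIs of other cells' markers (0.38), whereas Apln lay at -4.77 and -2.62 there. In Plvap endothelium the log2 differences were 0.04 for Apln and 0.02 for Vim.

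Col4a1, the alpha-1 chain of basement membrane collagen IV, at chr8:11198423-11312889, was one of the abundant genes among the 11. It stood at 479 and 557 CPM with BPTES and at 1382 and 835 CPM with DMSO, a log2 difference of -1.11 ± 0.21 (SE; edgeR adjusted p 0.0302). Over the whole gate it was also lower (-1.22 ± 0.21, adjusted p 0.416), as it was in Plvap endothelium (-0.61 ± 0.19, adjusted p 0.385). Akap12, a scaffold for protein kinase A, stood at 245 and 216 CPM against 466 and 521 CPM (-1.11 ± 0.19, edgeR adjusted p 0.00969), while it differed by 0.23 in Plvap endothelium. The difference between those effects had an edgeR adjusted p of 0.057. H2-K1, a classical MHC class I heavy chain, stood at 628 and 579 CPM against 1257 and 1001 CPM (-0.91 ± 0.17, edgeR adjusted p 0.025). The libraries of both groups were close to each other for Akap12 and H2-K1 and did not overlap. H2-K1 is one of a family of near-identical genes, so part of its count may belong to relatives. Gm13387 was at 7 and 8 UMIs against 32 and 35 (-2.12 ± 0.40, adjusted p 0.025).

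Among the higher genes, Cnmd, which encodes the anti-angiogenic peptide chondromodulin at chr14:79637682-79662194, was counted 45 and 51 times with BPTES and 9 and 8 times with DMSO. Its levels were 100 and 157 CPM against 25.4 and 18.2 CPM, a log2 difference of 2.52 ± 0.38 (SE; edgeR adjusted p 0.00231). It was found in 16 cells, 6, 5, 2 and 3 in library order, with at most 21 UMIs in a cell, and in no Plvap cell. Tspan13, a tetraspanin, stood at 158 and 111 CPM against 45.2 and 45.5 CPM (1.56 ± 0.31, edgeR adjusted p 0.0302), and at a log2 difference of 0.27 in Plvap endothelium.

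Igha and Igkc, the immunoglobulin heavy alpha and light kappa constant genes, products of B-lineage cells, were also higher. Igha had 47 and 54 UMIs with BPTES against 3 and 1 with DMSO (4.62 ± 0.51, edgeR adjusted p 5.89e-05). Igkc had 106 and 128 UMIs against 28 and 29 (2.09 ± 0.27, edgeR adjusted p 0.000695). In Plvap endothelium the log2 differences were 4.22 for Igha and 2.48 for Igkc, both in the same direction. Of the 4 plasma cell markers tested in the glomerular endothelial cells, 3 were higher in both BPTES libraries and 0 lower. Igha and Igkc were among the 3, and of all genes 17.5% were higher and 17.7% lower in this way. Jchain stood at 15.6 and 46.2 CPM with BPTES against 5.65 and 4.55 CPM with DMSO. The 8 markers other than Igha and Igkc, most of whose UMIs were of Xbp1 and Ighm, summed to 59, 59, 42 and 61 UMIs. Scaled to depth this was 131, 182, 119 and 139 CPM, so the groups overlapped. In the libraries as a whole, 178, 215, 28 and 32 barcodes carried at least 100 UMIs of Jchain. That count moved with the treatment, and the part of RNA from plasma cells in the Igha and Igkc values was not tested.

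**Figure D4:**
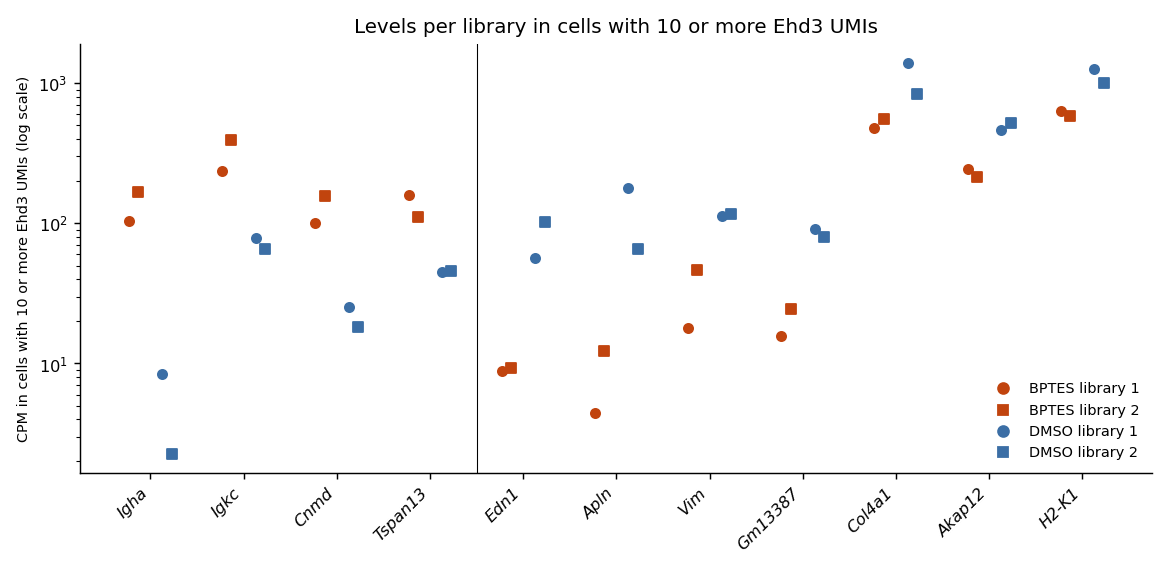
Level per library (CPM, log axis) in cells with at least 10 Ehd3 UMIs of the 11 genes that passed edgeR's adjusted threshold there, 4 higher with BPTES on the left and 7 lower on the right. The libraries of the groups do not overlap for any of the 11, and Edn1, Apln and Igha have the widest gaps.

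Of the genes of the basement membrane, only Col4a1 passed the test in the glomerular endothelial cells. Of 18 tested genes of the basement membrane and matrix list, 10 were lower in both BPTES libraries than in both DMSO libraries and 2 were higher, with a median log2 difference of -0.35. Of all 6753 genes 17.7% were lower and 17.5% higher in this way, with a median of 0.00. Col4a2, its partner chain in the collagen IV trimer, stood at 310 and 406 CPM with BPTES against 771 and 412 CPM (-0.73 ± 0.26). Lamc1, the laminin gamma-1 chain, stood at 187 and 209 CPM against 342 and 335 CPM (-0.79 ± 0.20), and the laminin chain Lama4 had 34 and 44 UMIs against 67 and 80 (-0.87 ± 0.27). The log2 differences of Nid1 (-0.46 ± 0.23), Lamb2 (-0.43 ± 0.25), Lama5 (-0.51 ± 0.29) and Sparc (-0.41 ± 0.17), which binds collagen, did not pass. Col4a3, which belongs to the mature collagen network made chiefly by podocytes, was on the other side at 0.31 ± 0.37, and Hspg2, the perlecan core protein, differed by -0.09 ± 0.21. In Plvap endothelium 17 of 23 tested genes of the list were lower and 1 was higher, against 21.9% and 19.4% of all 11547 genes, with a median of -0.56. Those cells come from the same 4 libraries, so the lists in the 2 kinds of cells are not independent. The Plvap cells also held fibroblast transcripts: the 7 fibroblast markers summed to 194, 38.5, 409 and 1485 CPM there in library order. Of the 6 tested, 6 were lower and 0 higher, beside the same shares, with a median of -3.37. The part of fibroblast RNA in the matrix list of the Plvap cells was not tested.

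Of 15 antigen presentation genes 6 were lower and 1 was higher, with a median of -0.38, against 17.7% and 17.5% of all genes. H2-D1, another class I heavy chain, differed by -0.40 ± 0.16, the class II invariant chain gene Cd74 by -0.90 ± 0.47 and the immunoproteasome subunit Psmb8 by 0.41 ± 0.27. In Plvap endothelium 1 of 19 was lower and 3 were higher, against 21.9% and 19.4% of all genes there, with a median of 0.02. Of 9 leukocyte adhesion genes in the glomerular endothelial cells 3 were lower and 1 was higher. Beside 17.7% and 17.5% of all genes, this is no clear lean on so few genes. Jam2, a junctional adhesion molecule, stood at 33.4 and 33.9 CPM against 136 and 79.7 CPM (-1.66 ± 0.35), while Icam1, a ligand for leukocyte integrins, was at 0.74 ± 0.33. Vcam1, an inducible ligand for the integrin of lymphocytes and monocytes, had 1 and 0 UMIs with BPTES and 24 and 6 with DMSO, too few to be tested in these cells. Over the gate its log2 difference was -2.15 ± 0.71 (edgeR adjusted p 0.703). None of these but H2-K1 passed the test.

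Of 14 heat shock genes tested, 5 were higher in both BPTES libraries and 0 lower, against 17.5% and 17.7% of all genes, with a median of 0.37, and none passed the test. Hspa8, the constitutive Hsp70 chaperone, stood at 622 and 865 CPM against 458 and 414 CPM (0.75 ± 0.19), and its co-chaperone Dnaja1 at 437 and 650 CPM against 311 and 298 CPM (0.81 ± 0.20). Hsp90ab1 differed by 0.49 ± 0.17 and Bag3 by 0.81 ± 0.30, whereas the stress-inducible Hspa1a and Hspa1b differed by -0.02 ± 0.32 and -0.04 ± 0.28. In Plvap endothelium 11 of 15 were higher and 2 lower, against 19.4% and 21.9% of all genes, with a median of 0.35. Of 16 immediate early genes 1 was higher and 4 lower in the glomerular endothelial cells, near the shares of all genes. Egr1, an early-response transcription factor, stood at 86.9 and 9.24 CPM against 48.0 and 93.3 CPM, so its libraries overlapped.

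The insulin, IGF and FOXO list had 7 of 11 genes higher and 1 lower, against 17.5% and 17.7% of all genes, with a median of 0.31, and none passed the test. Igfbp5, a binding protein for insulin-like growth factors, stood at 3437 and 4597 CPM against 2758 and 2802 CPM (0.52 ± 0.17). Klf9 (0.59 ± 0.25) and Tsc22d3 (0.54 ± 0.26), both targets of the glucocorticoid receptor, lay on the same side. In Plvap endothelium the median of the list was -0.01. Of 15 fatty acid genes 7 were lower and 2 higher, against the same shares, with a median of -0.29, and none passed the test. Gpihbp1, which holds lipoprotein lipase on the capillary wall, differed by -0.88 ± 0.20, and the fatty acid binding proteins Fabp4 and Fabp5 by -1.22 ± 0.58 and -1.04 ± 0.30. Cd36, the fatty acid receptor, lay at 1.30 ± 0.36 and Lpl, the lipase itself, at 0.56 ± 0.21, with 642 and 782 CPM against 367 and 580 CPM.

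Among genes of VEGF, Tie and nitric oxide signalling, the main survival and tone pathways of this endothelium, Edn1 and Apln alone passed the test. Of all genes, 17.5% were higher and 17.7% lower in these cells. Of 12 VEGF genes 4 were higher and 1 was lower, with a median of 0.05. Flt1, the decoy receptor for VEGF-A, stood at 1604 and 1382 CPM with BPTES and 1141 and 1454 CPM with DMSO (0.19 ± 0.17), Nrp1, a VEGF co-receptor, lay at 0.20 ± 0.16, and Vegfa at 0.44 ± 0.25. Tek, the angiopoietin receptor, stood at 610 and 548 CPM against 729 and 712 CPM (-0.33 ± 0.17), and its partner Tie1 lay at 0.22. Of 15 nitric oxide and shear stress genes 2 were higher and 5 lower. Nos3, the endothelial nitric oxide synthase, differed by -0.52 ± 0.30, the flow-responsive factors Klf2 by 0.31 ± 0.18 and Klf4 by 0.03 ± 0.19, and Ednrb, an endothelin receptor, by -0.29 ± 0.17.

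Of the 14 tested genes of fenestrae, caveolae and the glycocalyx 2 were higher and 1 was lower, with a median of 0.02, where 17.5% of all genes were higher and 17.7% lower. Of 21 TGF-beta and BMP genes 4 were higher and 7 lower, and Smad6 stood at 392 and 548 CPM against 328 and 344 CPM (0.46 ± 0.20). Of 10 Notch genes 2 were higher and 2 lower. The glomerular endothelium markers, Plat and Pi16 among them, had 8 of 11 genes higher and 0 lower, against the same shares, with a median of 0.40. Pi16 stood at 1281 and 1195 CPM against 867 and 944 CPM (0.43). None of these passed the test. Over the whole gate 8 of 13 markers were higher and 0 lower, with a median of 0.56, against 18.3% of all genes each way. This stood beside the smaller share of glomerular endothelial cells in DMSO library 2 given above, whose part in it was not tested.

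No gene of glutamine use, the pathway BPTES acts on, passed the test. Glul, which makes glutamine, stood at 105 and 55.4 CPM with BPTES and at 84.8 and 107 CPM with DMSO in the glomerular endothelial cells (-0.24 ± 0.31). Glud1, which feeds glutamate into the citric acid cycle, stood at 276 and 231 CPM against 325 and 246 CPM (-0.17 ± 0.20). The libraries overlapped for both genes. Of 9 tested genes of the list 0 were higher and 2 lower, against 17.5% and 17.7% of all genes, with a median of -0.07, and of 6 amino acid transporters 2 were higher and 0 lower. Of 14 glutathione and antioxidant genes 6 were higher and 2 lower, beside the same shares, with a median of 0.14. Only 1 gene of the ATF4 amino acid stress list was abundant enough to be tested.

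Cdkn1a, which encodes the cell cycle inhibitor p21, stood at 352 and 293 CPM with BPTES against 181 and 193 CPM with DMSO in the glomerular endothelial cells. The libraries did not overlap, and the log2 difference of 0.77 ± 0.20 had an edgeR adjusted p of 0.184. Over the gate it was 0.86 ± 0.22 (adjusted p 0.585), and in Plvap endothelium 0.04 ± 0.12. Of 11 senescence and p53 genes 2 were higher and 2 lower, against 17.5% and 17.7% of all genes. Of 12 genes of the mitochondrial genome 0 were higher and 6 lower, beside the same shares, with a median of -0.77. In Plvap endothelium 0 of 13 were higher and 12 lower, against 19.4% and 21.9% of all 11547 genes, with a median of -0.34. Over the gate 0 of 13 were higher and 1 lower, against 18.3% of all genes each way, with a median of 0.33. In the glomerular endothelial cells the 29 nuclear genes of the respiratory chain had 8 higher and 2 lower, with a median of 0.04, beside 17.5% and 17.7% of all genes. A single cell of DMSO library 2 held 748 of the 3196 mt-Nd1 UMIs of the glomerular endothelial cells, and its part in these values was not tested. Of 12 cholesterol genes 3 were higher and 2 lower. Abca1, the cholesterol exporter, differed by -0.75 ± 0.32 over the gate and stood at 131 and 110 CPM against 211 and 200 CPM in Plvap endothelium (-0.76 ± 0.13, edgeR adjusted p 0.0497).

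**Figure D5:**
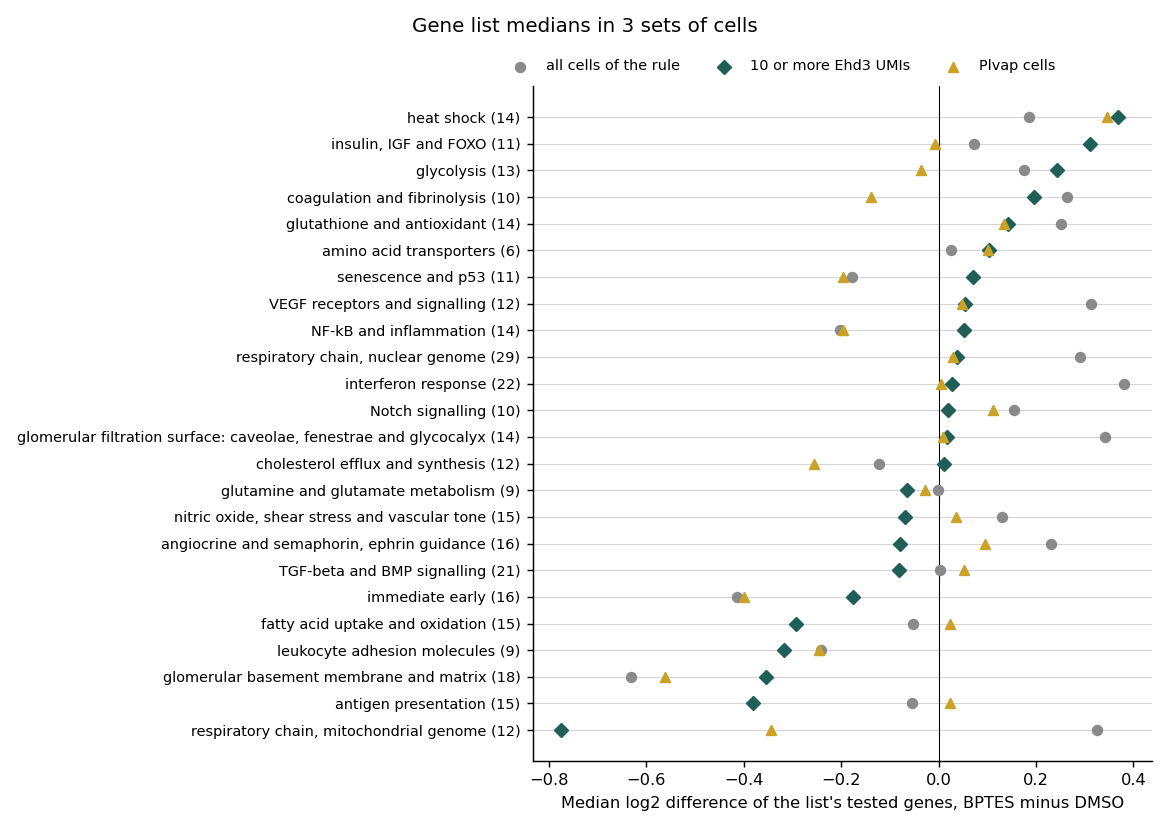
Median log2 difference (BPTES minus DMSO) of the tested genes of each pathway list in all cells of the rule, in cells with at least 10 Ehd3 UMIs and in Plvap endothelial cells, with the number tested in the cells with at least 10 in parentheses. Basement membrane and matrix genes lie below 0 and heat shock genes above 0 in all 3 sets, and the mitochondrial genome list lies at -0.77 in the cells with at least 10 and above 0 over all cells of the rule.

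The treatment effect over the gate differed from that in Plvap endothelium for 3 genes, all of which had at most 2 UMIs in the glomerular endothelial cells. The test was the interaction of cell class and treatment in edgeR with the library as a block, and it called 3 of 11376 genes (0.0264%). The count was 43 without BPTES library 1, 9 without BPTES library 2 and 13 without DMSO library 1. The unadjusted p lay under 0.05 for 474 genes (4.17%). In Plvap endothelium itself 34 of 11547 genes (0.294%) passed between BPTES and DMSO, 8 higher (0.0693%) and 26 lower (0.225%). Dcn, a fibroblast proteoglycan, had 1109, 47, 64 and 1144 UMIs over the gate and 26, 2, 56 and 1224 UMIs in Plvap cells, a difference of 5.32 ± 0.33 (adjusted p 0.00137). A single cell of BPTES library 1 held 1031 of the 1109 UMIs. Ogn, another proteoglycan of fibroblasts, had 358, 63, 62 and 312 UMIs against 6, 0, 19 and 117 UMIs (4.61 ± 0.48, adjusted p 0.03), and a single cell of BPTES library 1 held 333 of the 358. Npr3 had 763, 368, 465 and 779 UMIs in Plvap cells, and the difference was -3.65 ± 0.31 (adjusted p 0.00891). In the glomerular endothelial cells Dcn had 2 UMIs and Ogn and Npr3 had 0. When those cells alone were set against Plvap endothelium, 1 gene passed, Abi3bp, an extracellular matrix protein, at 3.40 ± 0.50 (edgeR adjusted p 0.022). It had 39, 32, 10 and 13 UMIs in the glomerular endothelial cells and 44, 10, 94 and 177 UMIs in Plvap cells. The value thus joins more Abi3bp with BPTES in the former and less in the latter.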

How the data were processed

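The deposited matrices hold raw UMI counts per gene and barcode, made by the authors with Cell Ranger 8.0.1 on build mm10, per the submitters' processing notes. Each of the 4 libraries totals 249881074 to 297947661 UMIs over its deposited barcodes (76278 in all), and the gated cells of a library 695005 to 1600632. The filters of the opening were applied, and UMI counts were summed over the gated cells of each library, since cells are not replicates. The sums were tested with edgeR 4.0.16 in R 4.3.3 (robust quasi-likelihood, TMM scaling, filterByExpr, Benjamini-Hochberg adjustment over all genes tested, threshold 0.05). The 9 genes of the gate and the added tdTomato sequence were not tested. Differences are log2 BPTES over DMSO, and their SE is the absolute difference over the square root of the test's F statistic. DESeq2 1.42.0, RLE scaling, no filter, a replicate block and each library left out were alternatives. No doublets were removed in the reported values; Scrublet in scanpy 1.11.5 removed 3 gated cells as an alternative (its own threshold marked 433 of 50605 barcodes, so the highest scores were taken, 2566 barcodes). The test was run on simulated counts first. Named genes were those past the threshold, the 8 smallest p in each direction, the members of 26 pathway lists past the threshold or, where none passed, the 2 most abundant, and a set always given, some of which are not reported here; further members were named after their values were seen. The members, the lists and the bound of 10 Ehd3 UMIs were chosen with earlier results of these data known. Of 609 list genes 5 matched no symbol. Groups whose libraries do not overlap are counted without a test, on TMM-scaled CPM, while CPM printed in the text is scaled to summed UMIs alone.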

Additional observations from a re-analysis of the deposited data

Results flagged for a closer look

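For 3 genes the difference between BPTES and DMSO in the gated cells was itself different from that in Plvap endothelium of the same libraries, by edgeR's test of the interaction. Dcn differed by 5.32 on the log2 scale, Ogn by 4.61 and Npr3 by -3.65. Dcn and Ogn are fibroblast genes, and a single gated cell of BPTES library 1 held 1031 of the 1109 Dcn UMIs and a single cell 333 of the 358 Ogn UMIs of that library. The gated cells with at least 10 UMIs of Dcn and Col1a1 numbered 3, 1, 4 and 25 in the order BPTES 1, BPTES 2, DMSO 1, DMSO 2, which is not the order of the Dcn UMIs (1109, 47, 64 and 1144). The part of these cells in the differences was not tested. Restricted to cells with at least 10 Ehd3 UMIs, the Dcn difference was -0.40, from 2 UMIs in these cells.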

How the results depend on the processing

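Over the whole gate edgeR called 0 genes as reported, 398 with no filter on low counts, 4 when cells with any UMI of other cells' markers were left out, 6 with at least 5 Ehd3 UMIs, 11 with at least 10, 54 with DESeq2, and 0 to 219 with 1 library left out (219 without DMSO library 1). In the cells with at least 10 Ehd3 UMIs the count of 11 was 4 with DESeq2, 9 without immunoglobulin, haemoglobin and mitochondrial genes, 69 with no filter, and 1 to 59 with 1 library left out (4 without BPTES library 1, 52 without DMSO library 1); all 11 genes kept their direction in these settings wherever they were tested. The deviations of replicate 1 from the group means had a correlation of r = -0.140 between BPTES and DMSO over 6192 genes. With only 2 pairs this single value cannot show or exclude pairing by replicate number. With the replicate block the counts were 0 and 7, with 6 of the 11 among the 7. The 3 differences from Plvap endothelium became 14 with DESeq2, 1 with at least 10 Ehd3 UMIs, 0 with at least 5, 0 with at least 2 Ehd3 and 0 Plvap UMIs, 8 without doublets, 1 with an endothelial sum of at least 6, 0 without cells holding other markers, 175 with no filter, 1 with the replicate block in place of the library block, and 2 to 43 with 1 library left out. The share difference of 0.362 percentage points became -0.834 after thinning, -0.225 among Ptprc-negative barcodes, and -0.319 to 1.04 with 1 library left out. Of 61 gene values followed, 50 reversed under no setting. With at least 10, with at least 5, or with at least 2 Ehd3 and 0 Plvap UMIs, the values that reversed were Tek (-0.33, -0.14, -0.18), Lpl (0.56, 0.066, 0.59), Edn1 (-3.13, -0.044, -0.0094) and Vim with at least 5 (0.26); the Dcn difference became -0.40 with at least 10. Without cells holding other markers Plat became -0.12, Tek -0.00085, Lpl 0.34, Vim 0.38 and the Npr3 difference 1.08. With 1 library left out the values over the gate ran from -0.14 (DMSO 2) to 0.48 for Tek, -0.19 (DMSO 2) to 1.28 for Tie1, -0.50 to 0.24 (DMSO 1) for Nos3, -0.58 to 0.22 (DMSO 2) for Lpl, -0.51 to 0.27 (BPTES 2; DMSO 1 0.13) for Glul, -1.89 to 0.25 (DMSO 2) for Egr1 and -1.36 to 0.30 (BPTES 2) for Vim; parentheses name the library whose absence reversed the sign. The cause was not tested. All settings on cells with 5 or 10 Ehd3 UMIs, other cells' markers and immunoglobulin genes were chosen after seeing the data. With 22 to 25 such cells per library, genes under about 50 CPM rest on few cells.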

Other observations

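The lists not yet described had 1 gene past the threshold in the cells with at least 10 Ehd3 UMIs, Edn1, which is also a member of the angiocrine and guidance list. Ephrin and semaphorin genes of that list lay on both sides: Efnb1 and Efnb2, which encode membrane-bound ephrins, differed by 0.75 ± 0.28 and 0.35 ± 0.17 on the log2 scale (SE), and Plxnd1, a semaphorin receptor, by -0.32 ± 0.21. Of its 16 tested genes 4 were higher and 5 lower, where 17.5% of all genes were higher and 17.7% lower in these cells. Of 22 interferon response genes 3 were higher and 5 lower, with a median of 0.03. Gbp4, an interferon-induced GTPase, differed by -1.18 ± 0.49, while over the whole gate 11 of 26 genes of the list were higher and 2 lower, with a median of 0.38, against 18.3% of all genes each way. Of 14 NF-kB and inflammation genes 3 were higher and 2 lower. Of 13 glycolysis genes 3 were higher and 1 lower, with a median of 0.24, and the enzymes Pgam1 and Ldhb differed by 0.69 ± 0.31 and 0.78 ± 0.44. Of 10 coagulation genes 4 were higher and 2 lower. Plaur, the urokinase receptor, differed by 0.49 ± 0.22 and F8, coagulation factor VIII, by -0.26 ± 0.17. Of 4 angiopoietin and Tie genes 0 were higher and 2 lower.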
